A study of Homo sapiens with 4 samples.

Results

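The mitochondrial ribosomal protein genes, chosen as the protein-coding rows of both deposited tables whose symbol is MRPL or MRPS followed by a number and at most a letter from A to C, numbered 78 of 60612 genes. They comprised 49 MRPL genes and 29 MRPS genes, and all 78 stood at 1 FPKM, a level per transcript length and library size, or more in every library. Poly(A) RNA was sequenced as paired ends in HCT116 and RKO, established human colorectal cancer cell lines. In each line, cells labelled AVEN wildtype (WT) were set beside cells labelled AVEN overexpression (OE), with 1 library per group and 4 libraries in all, and the labels record no other treatment, no vector control, no clone and no time. AVEN, an inhibitor of caspase activation, was at 1.53 FPKM in the WT and 2.96 in the OE library of HCT116, and at 1.34 and 4.43 in RKO. Wherever 4 values follow each other below, they are those of WT and OE in HCT116 and then of WT and OE in RKO.

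Mitochondria carry a ribosome of their own, which translates the small set of proteins encoded by mitochondrial DNA, all of them subunits of the oxidative phosphorylation complexes. Its RNAs are transcribed in the organelle, whereas its proteins are encoded in the nucleus, translated in the cytosol and imported. Some of these proteins have a counterpart in the bacterial ribosome and others are found only in mitochondrial ribosomes. The MRPL and MRPS names follow the large and small subunit, with exceptions: the products of MRPS30 and MRPS18A sit in the large subunit. MRPS36 has since been assigned to the 2-oxoglutarate dehydrogenase complex and is kept here because the symbol meets the rule.

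The depth behind the values was read from the smallest steps in the FPKM values. By this estimate 1 kilobase of transcript at 1 FPKM held 18.6, 20.8, 20.5 and 19.6 fragments, and a member's value rested on 41 to 6307 fragments. Ranges in brackets after a fold are 95% exact conditional (Clopper-Pearson) intervals on those fragments and cover counting error only, since no group has a second library. Mitochondrially encoded genes took 44.7%, 45.6%, 32.8% and 30.3% of the summed FPKM of a library. These are shares of FPKM and not of fragments, and rescaling without these genes was among the settings tried. All 5 epithelial markers were at 1 FPKM or more in the HCT116 libraries. In the RKO libraries 3 of 5 were, with CDH1 at 0.00800 and 0.00834 FPKM and KRT19 at 0.0660 and 0.0426 FPKM in WT and OE, and the summed level of the list was 936 to 980 FPKM in HCT116 and 45.6 to 80.9 in RKO. Of 8 markers of fibroblasts, endothelium and blood, COL1A1 reached 1 FPKM in HCT116 and none did in RKO.

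Promoters are shown first because the same short sequences recur near the starts of these genes. RefSeq promoters on GRCh38.p14, from 250 bases before to 50 bases after the annotated start, were matched by symbol for 69 of 78 genes. The letters CCGGAAG, the core bound by ETS factors such as GABPA, occurred on either strand in 29 of 69 promoters (42.0%), against 14.2% of all 15843 promoters and 21.3% of the 8209 promoters of measured genes. AAGATGGC, a core of the YY1 motif, occurred in 20 of 69 (29%), against 3.91% of all promoters and 5.96% of those of measured genes. Of its 21 matches, 17 lay on the strand of the gene and 15 began after the annotated start, with a median offset of 9 bases. The 2 sets of letters occurred together in 8 promoters, and their matches shared bases in 0 of them. The E-box CACGTG, a palindrome bound by MYC and other factors, occurred in 6 of 69 (8.70%), against 8.88% of all promoters and 10.6% of those of measured genes. TATAAA occurred in 2 of 69 promoters (2.90%), against 9.63% of all promoters and 4.86% of those of measured genes, and CCAAT in 20 (29%), against 36.4% and 37.0%. A match to these letters is a description of the window and not evidence of binding.

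The first 3 sequences below belong to genes that differed at least 2-fold in HCT116, and the next 3 to the most abundant genes whose promoters held both CCGGAAG and AAGATGGC. Each is written 5′ to 3′ on the strand of the gene, with capitals marking matches on either strand to CCGGAAG, AAGATGGC or CACGTG. They lie at chr11:65121933-65122232 (plus strand, MRPL49), chr10:100987448-100987747 (minus strand, MRPL43), chr2:99180934-99181233 (plus strand, MRPL30), chr12:6493213-6493512 (minus strand, MRPL51), chr6:43687742-43688041 (minus strand, MRPS18A) and chr19:38930694-38930993 (plus strand, MRPS12).
MRPL49: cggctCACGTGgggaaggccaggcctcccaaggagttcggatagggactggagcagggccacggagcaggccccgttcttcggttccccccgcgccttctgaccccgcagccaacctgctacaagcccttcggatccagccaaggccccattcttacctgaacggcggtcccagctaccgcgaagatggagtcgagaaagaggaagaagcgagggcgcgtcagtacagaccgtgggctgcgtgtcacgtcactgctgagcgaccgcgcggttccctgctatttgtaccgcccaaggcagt
MRPL43: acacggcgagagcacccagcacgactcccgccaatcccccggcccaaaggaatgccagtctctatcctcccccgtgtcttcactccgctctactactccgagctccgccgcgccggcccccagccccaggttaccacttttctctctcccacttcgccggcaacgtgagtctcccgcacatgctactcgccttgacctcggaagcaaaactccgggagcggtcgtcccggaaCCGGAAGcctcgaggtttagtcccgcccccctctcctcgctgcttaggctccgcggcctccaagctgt
MRPL30: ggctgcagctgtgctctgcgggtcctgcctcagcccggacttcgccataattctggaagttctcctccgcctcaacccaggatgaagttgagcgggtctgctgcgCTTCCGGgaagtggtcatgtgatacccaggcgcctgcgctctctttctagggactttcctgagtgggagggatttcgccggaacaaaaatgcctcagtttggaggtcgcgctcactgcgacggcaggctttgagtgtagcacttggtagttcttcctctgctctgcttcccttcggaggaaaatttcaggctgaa
MRPL51: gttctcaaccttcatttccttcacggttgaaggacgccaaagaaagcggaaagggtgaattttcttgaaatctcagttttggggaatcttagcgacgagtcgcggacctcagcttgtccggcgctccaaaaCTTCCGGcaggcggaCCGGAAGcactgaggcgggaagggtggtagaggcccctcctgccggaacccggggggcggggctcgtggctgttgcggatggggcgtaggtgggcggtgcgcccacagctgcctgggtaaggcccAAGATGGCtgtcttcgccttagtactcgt
MRPS18A: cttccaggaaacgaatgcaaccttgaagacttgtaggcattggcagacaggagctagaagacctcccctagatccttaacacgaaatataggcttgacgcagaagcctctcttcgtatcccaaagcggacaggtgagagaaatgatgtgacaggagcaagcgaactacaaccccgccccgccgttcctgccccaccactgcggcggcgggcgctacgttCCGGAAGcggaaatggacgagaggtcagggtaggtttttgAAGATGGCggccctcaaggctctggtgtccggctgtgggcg
MRPS12: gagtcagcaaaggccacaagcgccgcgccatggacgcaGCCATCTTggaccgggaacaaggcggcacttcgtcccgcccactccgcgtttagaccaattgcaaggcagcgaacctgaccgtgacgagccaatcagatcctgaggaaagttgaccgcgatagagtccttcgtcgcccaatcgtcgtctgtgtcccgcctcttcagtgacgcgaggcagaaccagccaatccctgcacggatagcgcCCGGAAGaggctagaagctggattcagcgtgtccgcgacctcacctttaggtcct

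With positions counted from the annotated start, CCGGAAG began at -18 in MRPL43, its reverse complement at -145 in MRPL30, and the E-box of MRPL49 at -245. The YY1 letters began at 21 in MRPL51 and at 9 in MRPS18A, and their reverse complement at -212 in MRPS12. The expression differences of OE against WT are given here by these letters as a description, with no test. In HCT116 the median log2 difference was -0.21 in genes with CCGGAAG and -0.20 in genes without, -0.21 with AAGATGGC and -0.20 without, -0.13 in the 6 genes with an E-box and -0.21 without, -0.25 with CCAAT and -0.19 without, and -0.32 in the 2 genes with TATAAA and -0.20 without. In RKO it was 0.10 with CCGGAAG and 0.02 without, 0.08 with AAGATGGC and 0.06 without, -0.04 with an E-box and 0.06 without, 0.02 with CCAAT and 0.07 without, and 0.44 with TATAAA and 0.06 without.

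Levels of the family spanned 73.0-fold between its most and least abundant members, by the mean of the 4 libraries. MRPL41, a protein found only in mitochondrial ribosomes, was the highest, at 87.7 and 73.9 FPKM in HCT116 WT and OE and 186 and 254 FPKM in RKO WT and OE. MRPL12, a stalk protein that recruits translation factors, followed at 190 and 151 FPKM in HCT116 and 93.3 and 117 in RKO. The order of these genes thus depended on the line: MRPL12 led in both HCT116 libraries and MRPL41 in both RKO libraries. MRPS26 stood at 65.3, 58.9, 105 and 126 FPKM. MRPS34, a small subunit protein needed for the stability of that subunit, stood at 86.5, 109, 64.9 and 81.5 FPKM. Over all 4 libraries the ranges of MRPS34 and MRPS26 overlap. Within a line they did not: MRPS34 was the higher of the pair in both HCT116 libraries and MRPS26 in both RKO libraries.

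At the other end, MRPL42 stood at 1.34, 2.99, 2.18 and 1.74 FPKM. MRPS33 stood at 4.08, 4.04, 1.89 and 2.45 FPKM. These were the lowest members by mean level, and the range of each overlaps that of the other. MRPL46 followed at 3.89, 2.94, 3.90 and 4.43 FPKM, and MRPL19, a bacterial-type protein of the large subunit, at 3.69, 3.27, 6.81 and 4.90. The median member stood at 19.2 FPKM by its mean over libraries, and 44 of 78 lay within 2-fold of that median. The MRPL genes had higher medians than the MRPS genes in each library, at 20.8 against 13.2 FPKM and 17.8 against 12 FPKM in WT and OE of HCT116, and at 21.6 against 12.5 FPKM and 25 against 13.9 FPKM in WT and OE of RKO.

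**Figure D1:**
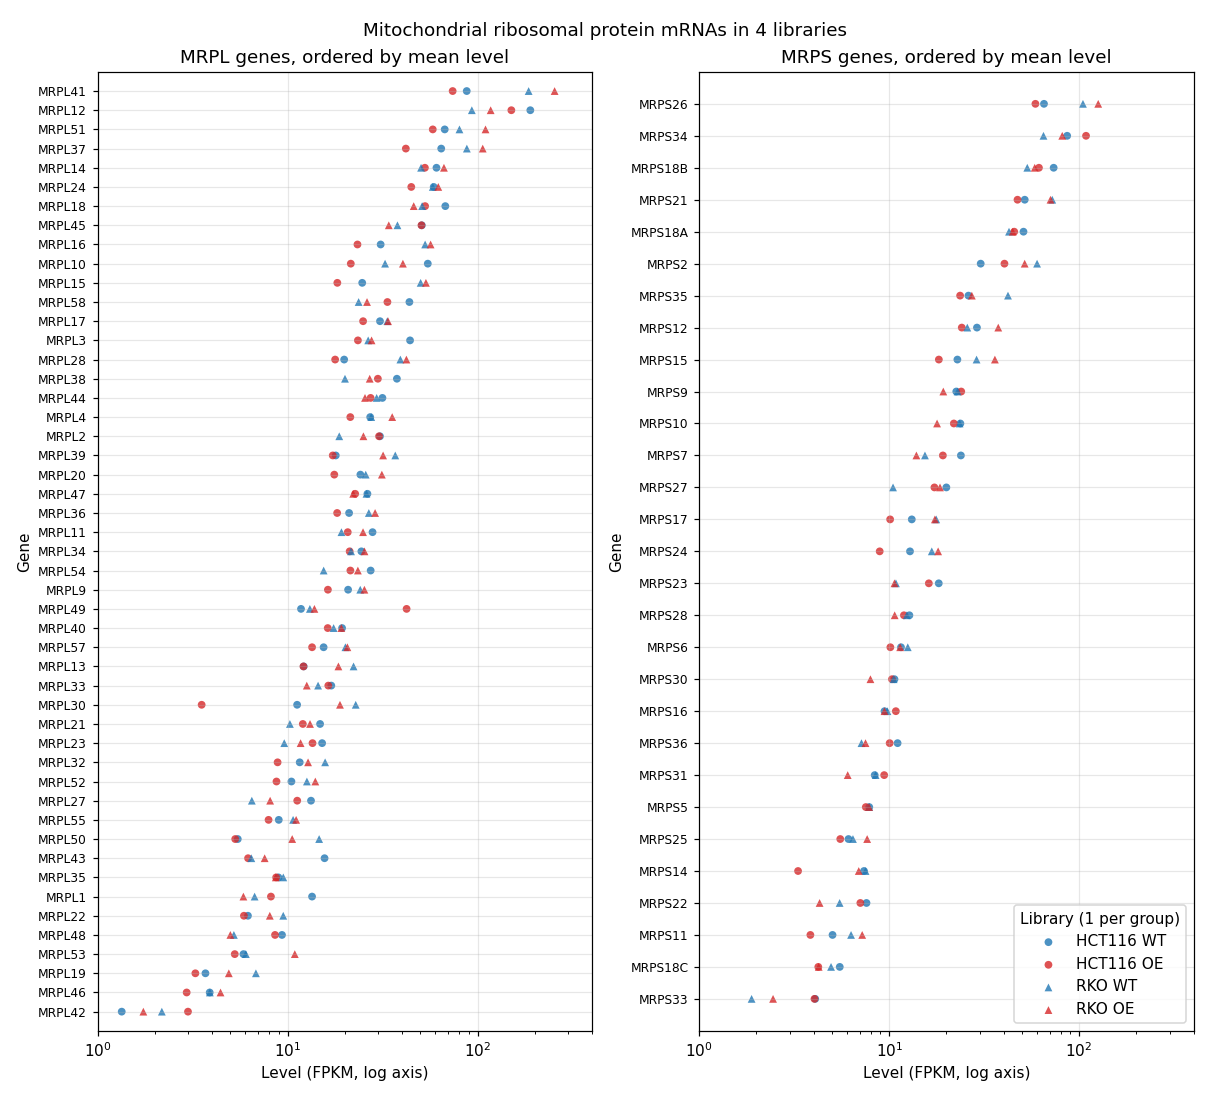
Level of each MRPL gene (left) and MRPS gene (right) in the 4 libraries, in FPKM on a log axis, with genes ordered by mean level, circles for HCT116, triangles for RKO, blue for WT and red for OE. The 4 libraries of most genes lie close together, with MRPL41 at the top (73.9 to 254 FPKM) and MRPL42 at the bottom (1.34 to 2.99), and the HCT116 OE points of MRPL49 (42.3) and MRPL30 (3.53) stand away from the other 3.

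The ranking of the family was much the same in every library. Across the 78 genes Spearman's rho between levels was 0.948 for HCT116 WT with OE, 0.971 for RKO WT with OE, 0.885 between the WT libraries and 0.884 between the OE libraries. These are descriptions across genes, which share library and gene length, and genes are not independent replicates. Levels were higher for genes of higher GC content, with rho between 0.41 (RKO WT) and 0.55 (RKO OE). The 3 paralogs of bacterial S18 differed widely. MRPS18B stood at 73.4, 61.4, 53.3 and 58.4 FPKM, and MRPS18A at 50.9, 45.5, 42.7 and 44.7. MRPS18C stood at 5.49, 4.23, 4.94 and 4.26 FPKM, below both paralogs in every library.

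In HCT116 the comparison asked how the mRNAs of the family differed when AVEN was overexpressed, and most members were slightly lower in the OE library. Of 78 members, 71 had a difference below 0 on the log2(FPKM + 1) scale, where 48.6% of the 11333 genes measured in the line did, and the median was -0.20 against 0.01 over all genes. Over 11305 of these genes the difference fell with level (Spearman's rho -0.24) and rose with transcript length (0.20). The median length was 1049 bases for members and 1465 over all genes tested. The 48.6% is not matched for level or length, and no correction for level was made. The summed level of the members was 2126 FPKM in WT and 1821 in OE, a ratio of 0.857, and their share of nuclear FPKM was 1.01% and 0.886%. With 1 library per group there is no test of these differences, and in bulk RNA fewer cells of a type and less RNA per cell cannot be told apart. The counting interval of the fold lay wholly below 1 for 41 members, where it did so for 15.8% of all genes, and wholly above 1 for 4, where it did so for 15.3%.

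The large subunit proteins with a bacterial counterpart were lower in OE in 29 of 29 cases, with a median log2 difference of -0.29. Some of these differences were close to 0, such as those of MRPL13 (-0.004) and MRPL2 (-0.02). With a correction for GC content and length, MRPL2 (0.07) and MRPL33 (0.005) of this class were above 0. Mitochondria-specific proteins of the large subunit were lower in 19 of 21, with a median of -0.20. Small subunit proteins with a bacterial counterpart were lower in 13 of 16 (median -0.21), and mitochondria-specific small subunit proteins in 8 of 10 (median -0.13). These counts are read against the 48.6% of all genes below 0, and differences between the classes were not tested. The spread of the members was close to that of all genes, with standard deviations of 0.39 and 0.37.

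Other groups of mitochondrial gene expression had medians from -0.20 to 0.01 in HCT116, OE against WT. Of 78 measured nuclear oxidative phosphorylation genes 67 were below 0, with a median of -0.13. The 13 measured genes of mitochondrial RNA synthesis and stability had a median of -0.20, with 10 below 0. The lowest was TACO1, a translational activator of a cytochrome oxidase subunit, at 30.4 and 21.3 FPKM in WT and OE, and the next was POLRMT, the mitochondrial RNA polymerase, at 30.1 and 23.3. Genes of mitoribosome assembly and rRNA modification had a median of -0.16, with 18 of 24 below 0, among them the rRNA methyltransferase gene MRM2 at 10.7 and 6.07 FPKM. The 12 mitochondrial translation factor genes had a median of -0.12, with 8 below 0. The 17 mitochondrial aminoacyl-tRNA synthetase genes had a median of 0.01, the 13 mitochondrially encoded mRNAs 0.01 and the 81 cytosolic ribosomal protein genes 0.04. The 6 genes with other names, for proteins of the mitoribosome or bound to it, had a median of 0.00, with GADD45GIP1 at 45.5 and 30.4 FPKM and OXA1L, the inner membrane insertase that binds the ribosome, at 27.2 and 33.5. MYC stood at 39.6 FPKM in HCT116 WT and 5.57 in OE, and at 8.08 and 10.6 in RKO, and its part in the differences of the family was not tested.

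MRPL49, a mitochondria-specific large subunit protein (ENSG00000149792, chromosome 11 from 65122183 to 65127371 on the plus strand, GENCODE 29), had the highest difference of the family in HCT116. Its HCT116 libraries held 11.8 FPKM (WT) and 42.3 FPKM (OE), against 13.1 and 13.8 FPKM in RKO. The HCT116 OE library alone was high, at 3.60-fold its WT library (3.15 to 4.12). Exons of MRPL49 overlap those of FAU and SYVN1 on the opposite strand, and no source used here says if the libraries were stranded. FAU, which encodes a ribosomal protein of the cytosol fused to a ubiquitin-like protein, stood at 169, 152, 171 and 190 FPKM. The log2 difference of MRPL49 in HCT116 was 1.76 alone and 0.24 after adding the values of both neighbours, a sum that FAU dominates.

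MRPL30, MRPL10 and MRPL43 were at least 2-fold lower in HCT116 OE. With MRPL49 these were 4 of 78 members, where 2.05% of all genes differed at least 2-fold in either direction, 1.02% higher and 1.02% lower. MRPL30, a bacterial-type protein of the large subunit, had 11.2 FPKM in HCT116 WT and 3.53 in OE, and 22.8 and 18.9 in RKO. Its HCT116 OE value was the lowest of the 4 libraries and 3.18-fold below WT (2.54 to 4.04). It shares exons on the same strand with AC079447.1 and AC092587.1, and the log2 difference was -1.43 alone and -1.33 with their values added.

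MRPL10, the protein that anchors the MRPL12 stalk, stood at 54.7 FPKM in HCT116 WT and 21.5 in OE, and at 32.6 and 40.5 in RKO. The HCT116 WT library was thus the highest of the 4 and the HCT116 OE library the lowest, 2.54-fold apart (2.30 to 2.81). MRPL10 had no exon overlap of at least 50 bases with another gene on either strand. MRPL43, a mitochondria-specific protein of the large subunit, stood at 15.6 FPKM in HCT116 WT and 6.19 in OE, and at 6.44 and 7.57 in RKO. Only the HCT116 WT library was high, at 2.53-fold the OE library (2.03 to 3.17). It overlaps SEMA4G and TWNK on the opposite strand, and TWNK, the mitochondrial DNA helicase gene, stood at 7.06 and 13.6 FPKM in HCT116 WT and OE. With both neighbours added the HCT116 log2 difference of MRPL43 was 0.15, against -1.21 alone.

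The authors' deposited table marked the same 4 members in HCT116, where its mark covered 0.419% of all identifiers, with p = 0.00697 for MRPL49, 0.0117 for MRPL30, 0.0393 for MRPL10 and 0.0411 for MRPL43. In the authors' deposited table the lowest q among the members in HCT116 was 0.904. The 0.419% counts all 60612 identifiers, whereas 11333 genes were measured in the line, so it is not a share of measured genes. The mark also rests on the same WT and OE libraries as the folds above. MRPS14, a bacterial-type protein of the small subunit, stood at 7.37 and 3.31 FPKM in HCT116 WT and OE and at 7.51 and 6.92 in RKO. MRPL42 stood at 1.34 and 2.99 FPKM in HCT116. These genes were 2.22-fold lower (1.69 to 2.92) and 2.23-fold higher (1.66 to 3.06) as plain ratios, and their log2(FPKM + 1) differences were -0.96 and 0.77, short of 2-fold because the added 1 weighs on low values. MRPS14 overlaps CACYBP on the opposite strand, and with it added the log2 difference was -0.45. CACYBP dominates that sum, at 33.7 FPKM in HCT116 WT and 26.4 in OE, with a log2 difference of -0.34 of its own.

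MRPL3, which lies close to the peptidyl transferase centre in bacterial ribosomes, stood at 44.1 FPKM in HCT116 WT and 23.4 in OE and at 26.6 and 27.7 in RKO, 1.88-fold lower in HCT116 OE (1.67 to 2.12). MRPL1, the protein of the L1 stalk, stood at 13.4 and 8.17 FPKM in HCT116 and at 6.70 and 5.85 in RKO. Both RKO libraries of MRPL1 lay below both HCT116 libraries. The 7 members above 0 in HCT116, where 51.4% of all genes were, were MRPL49, MRPL42, MRPS2, MRPS34, MRPS16, MRPS31 and MRPS9. MRPS2, a bacterial-type small subunit protein, stood at 30.3 and 40.4 FPKM in HCT116 and at 60.1 and 51.7 in RKO, 1.33-fold higher in HCT116 OE (1.20 to 1.49). MRPS34 was 1.26-fold higher (1.18 to 1.34). MRPS16 stood at 9.45 and 10.8 FPKM in HCT116 and at 9.79 and 9.44 in RKO, a fold of 1.15 whose interval held 1 (0.972 to 1.35).

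**Figure D2:**
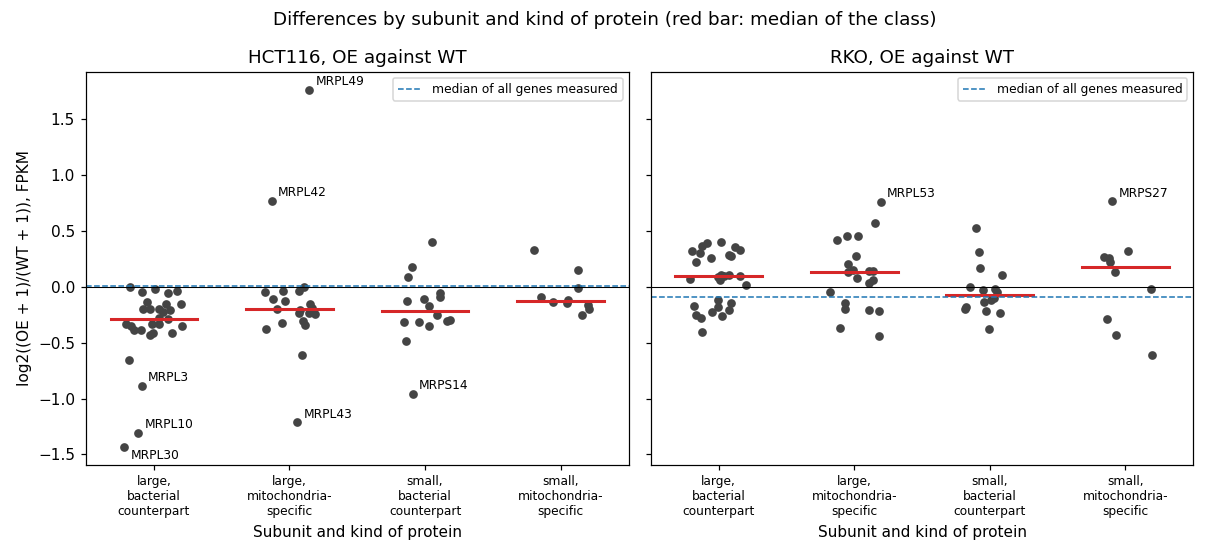
Difference of each member between OE and WT, log2 of (OE + 1)/(WT + 1) in FPKM, in HCT116 (left) and RKO (right), by subunit and kind of protein, with a red bar at the class median and a dashed line at the median of all genes measured. In HCT116 the class medians lie between -0.29 and -0.13 with MRPL49 (1.76) above and MRPL30 (-1.43), MRPL10 (-1.31) and MRPL43 (-1.21) below, and in RKO all members lie between -0.61 and 0.77.

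In RKO the members did not share a direction. Of 78 members 45 were above 0 and 33 below, where 40.7% of 11007 genes were above and 59.3% below, and the median was 0.07 against -0.09 over all genes. The median stayed above 0 under each scaling tried, at 0.178 with libraries centred on their medians and 0.0153 after rescaling without mitochondrially encoded genes. The summed level was 2155 FPKM in WT and 2389 in OE, a ratio of 1.11. At least 2-fold differences were found for 0 of 78 members, where 3.25% of all genes had one, and the authors' deposited table marked 0 members, against 0.563% of all identifiers, with a lowest p of 0.143. Counting intervals lay wholly above 1 for 21 members (19.5% of all genes) and wholly below 1 for 17 (31.9% of all genes).

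MRPS27, a pentatricopeptide repeat protein of the small subunit, stood at 10.5 FPKM in RKO WT and 18.5 in OE and at 20.0 and 17.3 in HCT116, so the RKO WT library was the low one. It was 1.77-fold higher in RKO OE (1.5 to 2.08). MRPL53 stood at 6.03 and 10.9 FPKM in RKO and at 5.86 and 5.27 in HCT116, 1.81-fold higher in RKO OE (1.37 to 2.43). MRPL53 shares exons on the same strand with CCDC142, and the log2 difference was 0.76 alone and 0.52 with CCDC142 added.

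MRPL54 stood at 15.5 and 23.4 FPKM in RKO and at 27.4 and 21.4 in HCT116. MRPS12, a decoding-site protein whose bacterial counterpart is altered in streptomycin resistance, stood at 25.8 and 37.5 FPKM in RKO and at 29 and 24.1 in HCT116. For both genes the direction in RKO was opposite to that in HCT116. MRPL51 stood at 80.3 and 110 FPKM in RKO and at 67.2 and 58.1 in HCT116, and MRPL41 was 1.37-fold higher in RKO OE (1.32 to 1.42).

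Lower in RKO OE was MRPS35, a small subunit protein, at 42.2 FPKM in WT and 27.2 in OE against 26.1 and 23.6 in HCT116, a 1.55-fold difference (1.40 to 1.72). RKO WT was the high library. MRPL50 stood at 14.7 and 10.6 FPKM in RKO and at 5.47 and 5.30 in HCT116, 1.39-fold lower in RKO OE (1.26 to 1.53). MRPS31 stood at 8.49 and 6.05 FPKM in RKO and at 8.39 and 9.41 in HCT116, MRPS10 at 23.5 and 17.9 in RKO and at 23.7 and 21.9 in HCT116, and MRPS30 at 10.6 and 7.97 in RKO and at 10.7 and 10.3 in HCT116. In these 3 genes the RKO OE library was the lowest of the 4. MRPL19 was lower in RKO OE as well, at a log2 difference of -0.40.

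The differences in RKO followed the GC content of the transcripts. Across the 78 members Spearman's rho between GC content and the RKO log2 difference was 0.746 (Pearson's r 0.677), and over all 10971 genes it was 0.548. Among the 26 members of lowest GC content (35% to 44.6%) 22 were below 0, with a median of -0.21. Of the 26 in the middle 16 were above 0, with a median of 0.08, and of the 26 of highest GC content (53.7% to 71.9%) 25 were above 0, with a median of 0.27. After a correction for GC content and length fitted on all genes, the medians of these 3 groups, by rising GC content, were 0.01, 0.04 and 0.00, rho was -0.04, and the standard deviation of the members went from 0.28 to 0.20. The difference went from 0.45 to 0.13 for MRPL41, from -0.44 to -0.09 for MRPL50 and from -0.37 to -0.05 for MRPS30. It grew in size for others, from 0.77 to 0.91 for MRPS27 and from -0.21 to -0.49 for MRPS2. In HCT116 rho with GC content was -0.24, over all genes it was -0.12, and the medians of the groups were -0.10, -0.25 and -0.22. The points share their libraries, so these are descriptions, and the origin of the GC relation was not tested.

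**Figure D3:**
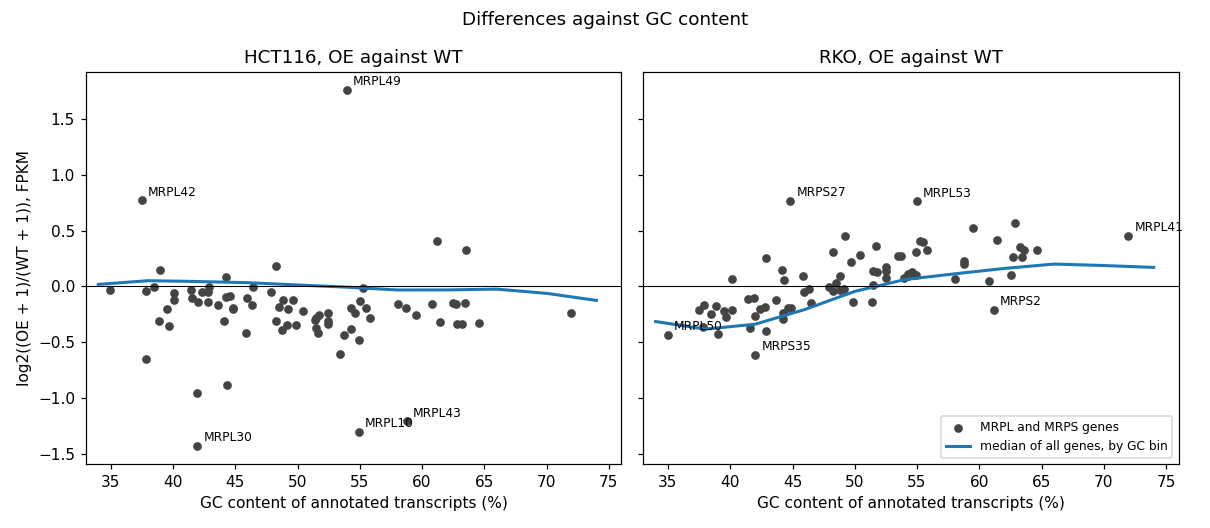
Difference of each member between OE and WT, log2 of (OE + 1)/(WT + 1) in FPKM, against the GC content of its annotated transcripts in percent, in HCT116 (left) and RKO (right), with the median of all genes in GC bins as a line. In RKO the members climb with GC content along the line for all genes (rho 0.746), and in HCT116 most lie below the line at any GC content.

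Set side by side, the lines differed in pattern. Of 78 members, 43 were below 0 in HCT116 and above 0 in RKO, where 25.4% of 9887 genes measured in both lines were, and 28 were below 0 in both, where 25.4% were. MRPL49 and MRPS34 were above 0 in both lines, where 15.7% of all genes were, and 5 members were above 0 in HCT116 and below 0 in RKO, where 33.5% were. MRPL30, MRPS14 and MRPL1 were below 0 in both lines, and MRPL10, MRPL43 and MRPL3 only in HCT116. In RKO the differences after GC and length correction were -0.01 for MRPL30, 0.14 for MRPS14 and 0.06 for MRPL1. They were 0.14 for MRPL10, -0.05 for MRPL43 and 0.19 for MRPL3. In HCT116 all of these genes stayed below 0 with the correction. For MRPL49 and MRPS34 the corrected RKO differences were -0.06 and 0.02. Spearman's rho between the differences of the lines was -0.35 over the members (Pearson's r -0.14), and the 2 lines share no library. The difference between lines has no test with 1 library per group.

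**Figure D4:**
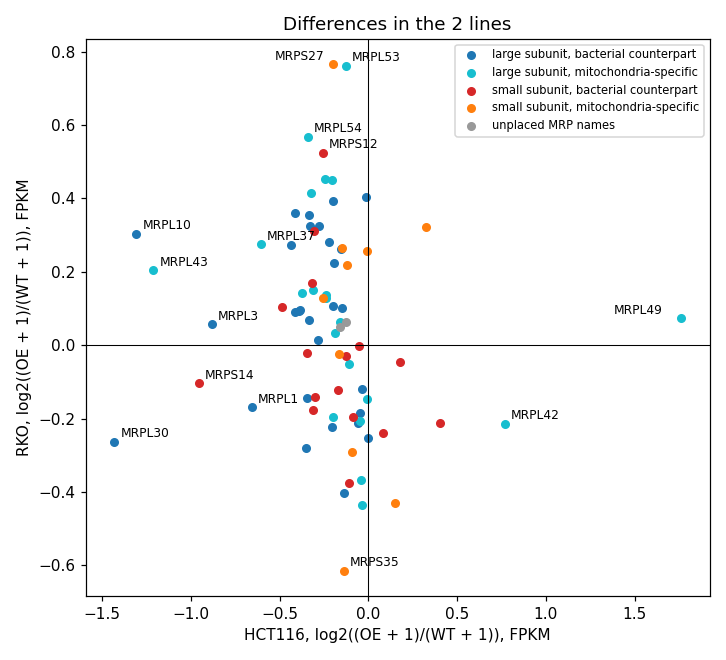
Difference between OE and WT in RKO (vertical) against that in HCT116 (horizontal) for the 78 members, both as log2 of (OE + 1)/(WT + 1) in FPKM, coloured by subunit and kind of protein. Most points lie left of 0 and spread on both sides of 0 vertically, 43 at the upper left and 28 at the lower left, with MRPL49 alone at the right edge (1.76).

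Taking the lines as replicates of the overexpression, 0 of 78 members passed an adjusted p of 0.05 in limma fitted to log2(FPKM + 1) with a term for line, where 0.121% of all genes did, or 14 of 11525. At an unadjusted p under 0.05 there were 2 members, MRPL30 and MRPL49, where 3.51% of all genes were. For MRPL30 the fitted difference was -0.85 (SE 0.28, adjusted p = 0.888, limma). Both lines were lower in OE, at -1.43 in HCT116 and -0.26 in RKO. With GC and length correction these values were -1.46 and -0.01. For MRPL49 the fitted difference was 0.92 (SE 0.33, adjusted p = 0.973, limma), almost all of it from HCT116. The fit has 1 residual degree of freedom and a median of 12 prior degrees of freedom, so its errors are mostly those of genes of like level, and no label states that the libraries are separate cultures.

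The same fit asked which members differed between RKO and HCT116. At an adjusted p under 0.05, 13 of 78 members differed, where 30.4% of all genes did. Higher in RKO were 10 (16.5% of all genes) and lower were 3 (14% of all genes). The spread of the line differences was smaller in the family than over all genes, with standard deviations of 0.55 and 1.02, and the median was 0.04 against 0.08. The standard deviation was smaller still in cytosolic ribosomal protein genes (0.30) and nuclear oxidative phosphorylation genes (0.43). The sign of the family's median is not settled, since it was -0.0195 with libraries centred on their medians and -0.127 after rescaling without mitochondrially encoded genes. Both RKO libraries lay above both HCT116 libraries for 32 members (38.6% of all genes) and below them for 19 (29.6% of all genes). Differences of at least 2-fold were found for 6 members, where 18.3% of all genes had one.

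MRPL41 was higher in RKO by 1.42 on the log2 scale (SE 0.23, adjusted p = 0.000349, limma), and the lower of its RKO libraries, at 186 FPKM, lay above the higher of its HCT116 libraries, at 87.7. MRPL30 was higher by 1.55 (SE 0.28, adjusted p = 0.000904, limma), with 11.2 and 3.53 FPKM in HCT116 and 22.8 and 18.9 in RKO. The size of the MRPL30 difference rests in part on its low HCT116 OE library. MRPL15, a bacterial-type protein of the large subunit, stood at 24.7 and 18.3 FPKM in HCT116 and 50.2 and 53.5 in RKO, higher by 1.25 (SE 0.23, adjusted p = 0.00108, limma). MRPL28 stood at 19.8 and 17.8 FPKM in HCT116 and 39.2 and 42.2 in RKO, higher by 1.07 (adjusted p = 0.00265, limma). In MRPL15 and MRPL28 the WT and OE libraries of a line lay far closer to each other than to the other line.

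MRPL50 was higher in RKO by 1.08 (adjusted p = 0.00410, limma), at 14.7 and 10.6 FPKM against 5.47 and 5.30 in HCT116. MRPL16 stood at 30.9 and 23.3 FPKM in HCT116 and 53.0 and 56.6 in RKO, higher by 1.0 (adjusted p = 0.00490, limma). MRPL39 stood at 17.9 and 17.3 FPKM in HCT116 and 36.9 and 31.8 in RKO, higher by 0.92 (adjusted p = 0.00719, limma). The RKO libraries of these 3 genes all lay above their HCT116 libraries. MRPS26 was higher by 0.88 (adjusted p = 0.00861, limma), and MRPL37, at 64.4 and 41.9 FPKM in HCT116 and 87.8 and 106 in RKO, by 0.88 (adjusted p = 0.0157, limma). MRPL13 stood at 12.2 and 12.1 FPKM in HCT116 and 22.2 and 18.5 in RKO, higher by 0.70 (adjusted p = 0.0367, limma).

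MRPL12 was lower in RKO, by a log2 difference of -0.69 (SE 0.23, adjusted p = 0.0372, limma), with all RKO values below all HCT116 values. MRPL48 stood at 9.34 and 8.59 FPKM in HCT116 and 5.21 and 5.0 in RKO, a difference of -0.71 (adjusted p = 0.0386, limma). MRPS33 differed by -0.68 (adjusted p = 0.0489, limma). MRPL27, the bacterial-type protein whose tail reaches the peptidyl transferase centre in bacteria, stood at 13.3 and 11.2 FPKM in HCT116 and 6.48 and 8.09 in RKO, a difference of -0.68 that missed the threshold (adjusted p = 0.0511, limma). MRPL49 had a difference of -0.70 (adjusted p = 0.127, limma), and MRPL1 one of -0.66 (adjusted p = 0.0569, limma). Of the 13 calls, those of MRPL15, MRPL16, MRPL28, MRPL39, MRPL41 and MRPL50 were kept under all settings tried, and the other 7 were lost under at least 1.

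Grouped by chromosome, an arrangement chosen after the values were seen, members of chromosome 17 were lower in RKO in 7 of 8 cases with a median log2 difference of -0.56, where the 756 genes tested there had a median of -0.14 and 59.4% lay below 0. The 8 members of chromosome 17 were MRPL10, MRPL12, MRPL27, MRPL38, MRPL45, MRPL58, MRPS23 and MRPS7. On chromosome 1 all 8 members were higher in RKO, with a median of 0.45 against 0.07 over 1197 genes, of which 55.1% lay above 0. On chromosome 9 all 3 members were higher, with a median of 1.08 against 0.50 over 471 genes, of which 74.5% lay above 0. Other chromosomes went either way. On chromosomes 7 and 8, 3 of 4 and 2 of 3 members were higher, where 64.1% and 67.1% of genes lay above 0. On chromosomes 6 and 11, 5 of 6 and 5 of 7 members were lower, where 51.5% and 52.7% of genes lay above 0. On chromosomes 3 and 5, 3 of 4 and 3 of 5 members were lower, where 57.65% and 54.4% of genes lay above 0. Copy number was not measured here.

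**Figure D5:**
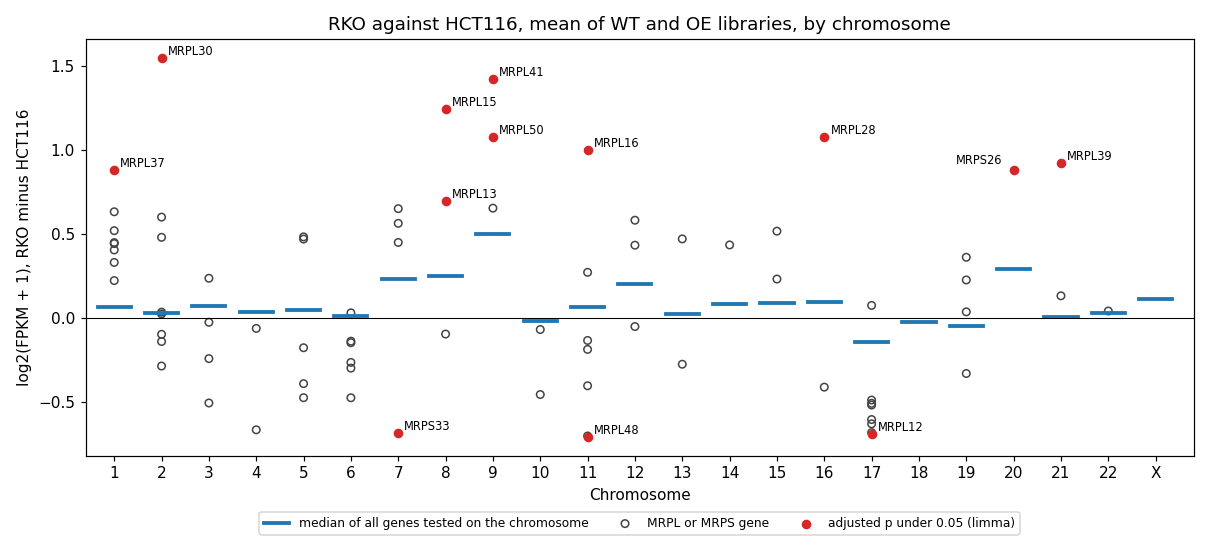
Difference between lines for each member, mean log2(FPKM + 1) of the RKO libraries minus that of the HCT116 libraries, by chromosome, with filled red points for members past an adjusted p of 0.05 in limma and blue bars for the median of all genes tested on a chromosome. The 13 filled points include MRPL30 (1.55) and MRPL41 (1.42) at the top and MRPL48 (-0.71) at the bottom, and 7 of 8 members on chromosome 17 lie below 0.

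The rest of the mitochondrial translation genes differed between the lines as follows, where 16.5% of all genes were called higher in RKO and 14% lower. Of 17 mitochondrial aminoacyl-tRNA synthetase genes 6 were higher in RKO and 1 lower at an adjusted p under 0.05 in limma, among them YARS2 at 12.3 and 9.64 FPKM in HCT116 and 23.8 and 27.5 in RKO, and SARS2, the lower one, at 8.79 and 10.3 against 2.71 and 4.34. Of 25 assembly and rRNA modification genes 5 were higher and 0 lower, with the pseudouridine synthase TRUB2 at 9.93 and 8.77 against 27.8 and 32.9 FPKM. Of 12 translation factor genes TSFM, the nucleotide exchange factor of the mitochondrial elongation factor Tu, was the 1 call, at 7.71 and 8.11 against 23.9 and 21.2 FPKM. Of 13 mitochondrially encoded mRNAs 10 were lower in RKO and 1 higher. By the overexpression contrast 0 genes of these lists passed in limma. In RKO, OE against WT, the median log2 difference was -0.34 for the translation factors, with 9 of 12 below 0, where 59.3% of all genes were, and 0.07 for the assembly genes, with 17 of 25 above 0, where 40.7% of all genes were. With GC and length correction these medians were -0.12 and -0.01, and the uncorrected median of all genes was -0.09.

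Exon sharing touches many of these values. On the same strand 15 members share at least 50 bases of exon with another gene, on the opposite strand 27 overlap one, and 39 do either. Among same-strand sharers the readthrough gene URGCP-MRPS24 covers MRPS24, which stood at 12.9, 8.91, 16.8 and 18.1 FPKM. MRPS17 stood at 13.2, 10.1, 17.7 and 17.4 FPKM, and its log2 difference in HCT116 was -0.35 alone and -0.01 with NIPSNAP2 and AC092647.5 added. MRPL33 stood at 17, 16.4, 14.5 and 12.6 FPKM, and its RKO difference was -0.18 alone and 0.03 with BABAM2 added. In these 2 genes the sum with the neighbours removes or turns the difference.

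MRPL20 stood at 24.2, 17.6, 25.8 and 31.3 FPKM, MRPL38 at 37.6, 29.9, 20.0 and 27.1, and MRPL9 at 20.8, 16.3, 24.1 and 25.4. All 3 were lower in HCT116 OE and higher in RKO OE, and adding same-strand neighbours kept both directions. With GC and length correction the RKO differences were 0.08 for MRPL20, 0.10 for MRPL38 and -0.12 for MRPL9. MRPS5 stood at 7.85, 7.53, 7.85 and 7.84 FPKM, and its HCT116 difference was -0.05 alone and 0.06 with ZNF514 added, a change of sign at values close to 0. MRPS6 stood at 11.5, 10.1, 12.5 and 11.4 FPKM, and MRPS28 at 12.8, 12, 12.4 and 10.7, with OE below WT in both lines. Corrected in the same way, the RKO differences were 0.09 for MRPS6 and -0.12 for MRPS28. Without the 39 members that overlap another gene on either strand, a setting added after the data were seen, 37 of 39 members were below 0 in HCT116 and the median was -0.20.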

How the data were processed

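Poly(A) RNA of 4 samples was sequenced in paired-end mode, per the labels' protocols, and sample titles gave the groups. The authors deposited a table per line with FPKM values per gene and library, in which genes without signal are listed at 0.0001. The deposited fold, log2 fold, p-value and q-value are the authors' own comparison within a line. Bowtie 0.12.2, HISAT2 2.0, StringTie 1.3.0 and a mouse build are named in the submitters' processing notes, whereas the identifiers are human, which leaves the alignment build unsettled. Strandedness is not stated in any source used here.

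A difference is log2((OE + 1)/(WT + 1)), a scale that understates the change of low genes. Genes needed a mean of 1 FPKM or more. Within a line no test was possible with 1 library per group. The 4 libraries together were modelled on the log2(FPKM + 1) scale by limma 3.58.1 (R 4.3.3), with line and genotype as terms and a prior trended on level. Its two-sided p-values were adjusted by the Benjamini-Hochberg method over 11525 genes, and the fit was tested on simulated data. GC content and lengths came from GENCODE 29 on GRCh38, which held 58394 of 60612 identifiers, and their relation to the differences was removed by lowess (statsmodels 0.14.6). Fragments were estimated from the commonest smallest step of single-exon genes, so depth is an estimate, and copies of a fragment could not be told apart. A count of 0, which allows 3 fragments, allows 0.145 to 0.161 FPKM on 1 kilobase.

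The members and the gene lists were chosen with earlier results of these data known. By the rule for named genes, values in every library are given for members at least 2-fold apart, the 6 highest and 6 lowest differences of each comparison, the 4 highest and 4 lowest levels, members past the limma threshold, the MRPS18 paralogs and members sharing exons. From other lists up to 2 highest and 2 lowest were named. Alternatives changed the pseudocount, the filter, the scaling, the GC correction, the fit or the members that overlap other genes.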

Additional observations from a re-analysis of the deposited data

Results flagged for a closer look

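The median log2 difference of the family, OE minus WT, had opposite signs in the lines, at -0.20 in HCT116 and 0.07 in RKO. With 1 library per group the difference between the lines was not tested, and within RKO the value followed GC content, from a median of -0.21 in the 26 members of lowest GC content to 0.27 in the 26 of highest. MRPL10 differed by -1.31 in HCT116 and by 0.30 in RKO, and this difference was not tested either. MRPL43 differed by -1.21 in HCT116 and by 0.20 in RKO, also not tested, and with its opposite-strand neighbours added the values were 0.15 and -0.34. With GC and length correction the RKO values were 0.14 for MRPL10 and -0.05 for MRPL43.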

How the results depend on the processing

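With 1 library per group, spread within a line is unknown, and leaving out a library leaves the fit with both terms no residual degree of freedom, so no such value is given. The term for line in the limma fit pairs OE with WT within a line, and no pairing by replicate number was possible because the labels carry none. By limma, genes past the threshold for overexpression went from 14 of 11525 to 7 with a pseudocount of 0.1, 1 of 27674 with no filter and 3 of 5974 with a mean of at least 5 FPKM. The count was 7 after rescaling without mitochondrially encoded genes, 1 with quantile normalization and 0 without the term for line, and rose to 21 with libraries centred on their medians. Members among the genes past the threshold numbered 0 under all of these settings. Genes differing between lines went from 3507 of 11525 to 1805 of 5974 when only genes averaging 5 FPKM were kept. Members among them ranged from 7 with no filter (3194 of 27674 genes) to 18 after rescaling (3145 of 11525 genes). At least 2-fold differences in HCT116 went from 232 of 11333 genes to 419 with a pseudocount of 0.1 and 97 of 5780 at a minimum of 5 FPKM. In RKO they went from 358 of 11007 genes to 629 and to 159 of 5943.

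The HCT116 median of the members, -0.20, was -0.21 with a pseudocount of 0.1, -0.23 with libraries centred on their medians, -0.16 after rescaling and -0.18 with GC and length correction, with 67 to 71 of 78 members below 0. The RKO median, 0.07, was 0.18 centred, 0.0153 rescaled, 0.0212 corrected, 0.0633 without members sharing exons on the same strand and 0.0572 without those overlapping on either strand, which was added after the data were seen. The median between lines, 0.04, turned to -0.0195 centred and to -0.127 rescaled, and was 0.00136 corrected and 0.0316 without same-strand sharers. Centring and rescaling apply 1 shift or factor to a whole library, and the cause of the other changes was not tested.

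Of 114 values of single members under other settings, 98 kept their direction and their side of the threshold and 16 lost a call between lines. The calls lost belonged to MRPL12, MRPL13, MRPL30, MRPL37, MRPL48, MRPS26 and MRPS33. MRPL30 lost its call only without the term for genotype.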
